A study of Canis lupus familiaris with 31 samples.

Results

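The nuclear respiratory chain genes are the genes of the cell nucleus that encode subunits and assembly factors of mitochondrial complexes I to V, together with cytochrome c. They were taken from the table of counts by symbol, as every row whose symbol began with NDUF, UQCR, SDHA, SDHB, SDHC, SDHD, ATP5, COX4I, COX5, COX6, COX7 or COX8, or was CYC1 or CYCS. This gave 64 of 32704 rows, of which 59 had enough counts to be tested. RNA from whole blood of 31 purebred Miniature Schnauzers, all client-owned pets, was sequenced with 1 library per dog. The 13 cases, labelled HTG for their high triglycerides in blood drawn after a fast, comprised 5 females and 8 males aged 8 to 14 years. The 18 controls, with normal triglycerides, comprised 8 females and 10 males aged 7 to 13 years. The labels name no treatment, and the sample was blood with all of its cells, red cells and platelets included. Each dog is a separate animal, so that the tests below measure differences against the spread between dogs.

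The respiratory chain passes electrons from NADH, at complex I, and from succinate, at complex II, through complex III and cytochrome c to complex IV, which reduces oxygen. Complexes I, III and IV pump protons across the inner mitochondrial membrane, and complex V, the ATP synthase, uses their return to make ATP. Most subunits are encoded in the nucleus and are joined in the mitochondrion by subunits that its own genome encodes. Mature red cells of mammals have lost their mitochondria, whereas reticulocytes, the youngest red cells in blood, still carry some mitochondria and RNA, as do platelets and all white cells.

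Of the 64 genes, 7 encode core subunits of complex I, 19 its accessory subunits and 8 its assembly factors. Complex II is represented by 3 subunits and 4 assembly factors, complex III by 6 genes, complex IV by 9, complex V by 7, and cytochrome c by CYCS. SDHD was not analysed here. In the cases these rows together held 0.185 ± 0.0214% of the counts (SD, n = 13), against 0.183 ± 0.0235% for controls (SD, n = 18), out of 14524659 to 41533599 counts per dog. The lowest share, in control 02, was 0.145% and the highest, in case 01, was 0.219%. The difference between the group means was smaller than the spread between dogs of either group.

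The 5 genes that fell under the filter on low counts included the isoforms that are best known from muscle and lung. COX7A1 and COX6A2, the forms of complex IV subunits found in heart and skeletal muscle, had at most 19 and 8 counts in a dog. COX4I2, the alternative form of subunit 4 known from lung, had 1 count in each of 2 controls and 0 in the remaining dogs. Its common counterpart COX4I1 had between 527 and 3064 counts in every dog. NDUFA4L2, a paralog of a complex IV subunit that is known to be induced by low oxygen, had at most 2 counts. ATP5MD, a small membrane subunit of complex V, had 0 counts in all 31 dogs, which allows up to 0.0044 counts-per-million (CPM) over the 31 libraries together. This limit covers counting error only.

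In the comparison of HTG cases with controls, which asks whether blood expression differs with high triglycerides, 0 of the 59 tested genes had an adjusted p of at most 0.05 (edgeR quasi-likelihood test, Benjamini-Hochberg adjustment over all genes tested). The smallest adjusted p among them was 0.355. Of all 13918 genes tested 0.0359%, or 5 genes, passed that threshold. At an unadjusted p under 0.05 there were 3 respiratory chain genes, or 5.08% of those tested, against 9.81% of all genes. Of the 3, 2 were higher in the cases and 1 was lower, where 5.04% of all genes tested had such a p and were higher and 4.76% had such a p and were lower. The log2 fold changes of cases over controls ranged from −0.39 to 0.69 with a median of 0.03, beside a median of −0.02 over all genes tested. They were above 0 for 34 of the 59 genes, or 57.6%, against 45.5% of all genes. Since these are bulk samples, fewer cells of a type and less RNA per cell cannot be told apart in any of the values given here.

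**Figure D1:**
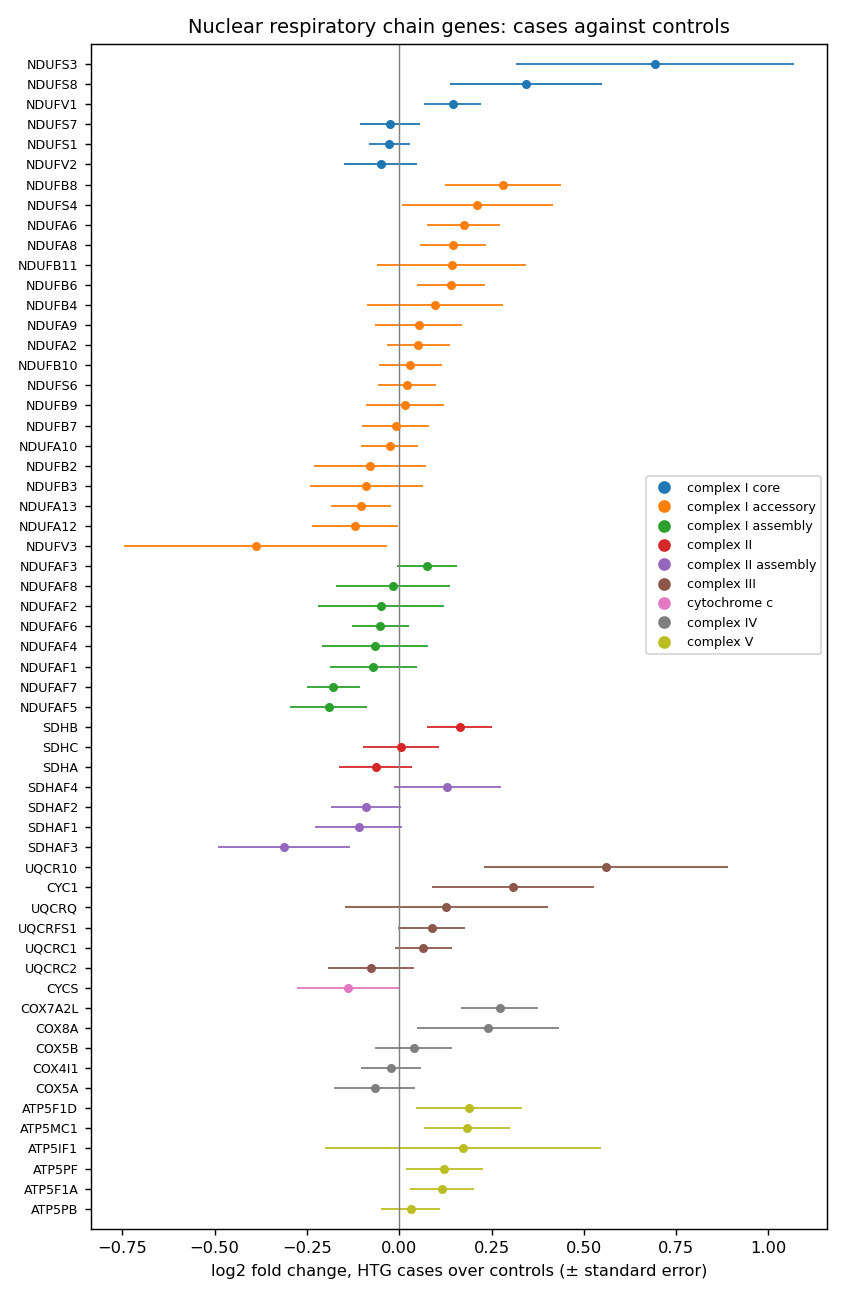
Log2 fold changes of HTG cases over controls for 58 of the 59 tested genes (points) with their standard errors (SE, lines), grouped by complex. NDUFS3 at 0.69 and UQCR10 at 0.56 lie farthest to the right, with SE of 0.38 and 0.33, and NDUFV3 at −0.39 lies farthest to the left.

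Among the core subunits of complex I, NDUFV1 (ENSCAFG00000011109), which binds NADH and its flavin, had 27.4, 38.2 and 46.4 CPM as the lowest, median and highest value in the cases. In the controls these values were 24.8, 33.5 and 38.2 CPM. The ranges overlapped, and 8 of the 13 cases exceeded the control median. The log2 fold change was 0.14 (standard error, SE, 0.08). All 13 cases except 1 had more NDUFS3 (ENSCAFG00000008411), a core subunit of the arm that carries electrons to quinone, than the median control. Its values spread over a wide range in both groups, from 29.7 CPM over a median of 59.9 to 253 CPM in the cases and from 20.7 over 34.7 to 299 CPM in the controls. The log2 fold change of 0.69 had a SE of 0.38, and the adjusted p was 0.567 in the edgeR quasi-likelihood test.

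The 19 accessory subunits of complex I, which surround the core without carrying electrons, had a median log2 fold change of 0.03. NDUFB8 (ENSCAFG00000009698) had 16.4, 19.5 and 52.3 CPM as the lowest, median and highest value in the cases and 14.5, 17.4 and 43.0 CPM in the controls. NDUFA6 (ENSCAFG00000000982) had 10.0, 14.0 and 17.3 CPM in the cases and 9.73, 11.8 and 22.6 CPM in the controls. In each of these genes 11 of 13 cases lay above the control median, with ranges that overlapped. Their log2 fold changes were 0.28 (SE 0.16) and 0.17 (SE 0.10), neither with an unadjusted p under 0.05.

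The assembly factors of complex I help to build the complex and are not part of it once it is finished. Their log2 fold changes were below 0 for 7 of the 8. NDUFAF7 (ENSCAFG00000006096), a methyltransferase, had 5.98, 7.88 and 9.81 CPM as the lowest, median and highest value in the cases, against 6.84, 9.36 and 10.6 CPM in the controls. Only 1 of the 13 cases lay above the control median, and the ranges overlapped. Its log2 fold change was −0.18 (SE 0.07, unadjusted p = 0.0176, adjusted p = 0.365, edgeR quasi-likelihood). NDUFAF5 (ENSCAFG00000005571), which modifies NDUFS7, had a log2 fold change of −0.19 (SE 0.10), with 3 of 13 cases above the control median. NDUFAF3, the 1 factor above 0, had a log2 fold change of 0.08 (SE 0.08).

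The 3 subunits of complex II, the succinate dehydrogenase that also serves the tricarboxylic acid (TCA) cycle, had log2 fold changes of both signs. SDHB (ENSCAFG00000015832), its iron-sulfur subunit, had 17.2, 25.1 and 36.7 CPM as the lowest, median and highest value in the cases and 17.6, 22.1 and 28.4 CPM in the controls, with a log2 fold change of 0.16 (SE 0.09). SDHA (ENSCAFG00000010951), the flavoprotein that oxidizes succinate, had 35.8, 56.0 and 78.1 CPM in the cases and 37.7, 61.8 and 77.3 CPM in the controls, with a log2 fold change of −0.06 (SE 0.10). SDHC, a membrane anchor, was at 0.01 (SE 0.10), and its sign changed under upper quartile normalization. Of the 4 assembly factors 3 had log2 fold changes below 0, the lowest being that of SDHAF3 at −0.31 (SE 0.18). None of these 7 genes had an unadjusted p under 0.05.

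Complex III, which takes electrons from quinol, had 5 of its 6 genes above 0. UQCR10 (ENSCAFG00000028837), a small subunit, had 25.9, 49.8 and 233 CPM as the lowest, median and highest value in the cases and 24.1, 34.7 and 271 CPM in the controls, and its log2 fold change was 0.56 (SE 0.33). CYC1 (ENSCAFG00000001529), the cytochrome c1 that hands electrons to cytochrome c, had 23.2, 34.5 and 82.0 CPM in the cases and 19.2, 26.0 and 95.7 CPM in the controls, with a log2 fold change of 0.31 (SE 0.22). UQCRC1, a core protein, was at 0.07 (SE 0.08). The highest control in both UQCR10 and CYC1 was control 03 and the highest case was case 01, and the remaining dogs overlapped. Cytochrome c itself (CYCS, ENSCAFG00000002856) had medians of 18.7 CPM in the cases and 19.2 CPM in the controls, with 54.2 CPM in control 09 as the highest value.

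In complex IV, COX7A2L (ENSCAFG00000032040), which joins complexes III and IV into larger assemblies, had the smallest p of the 59 genes. It had 12.1, 16.2 and 22.6 CPM as the lowest, median and highest value in the cases and 9.07, 13.5 and 22.2 CPM in the controls, and 11 of 13 cases lay above the control median. The log2 fold change was 0.27 (SE 0.11, unadjusted p = 0.0144, adjusted p = 0.355, edgeR quasi-likelihood). COX8A (ENSCAFG00000014738), a small subunit, had a log2 fold change of 0.24 (SE 0.19), and COX4I1 had one of −0.02 (SE 0.08). All 6 tested genes of complex V had log2 fold changes between 0.03 and 0.19, none with an unadjusted p under 0.05. ATP5MC1 (ENSCAFG00000016880), which encodes a subunit of the rotating ring, had 5.72 to 10.5 CPM in the cases and 4.04 to 10.4 CPM in the controls, with a log2 fold change of 0.18 (SE 0.12). The counts above and below 0 in each complex were the same under the RLE method, and under upper quartile normalization they differed only in complex II.

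**Figure D2:**
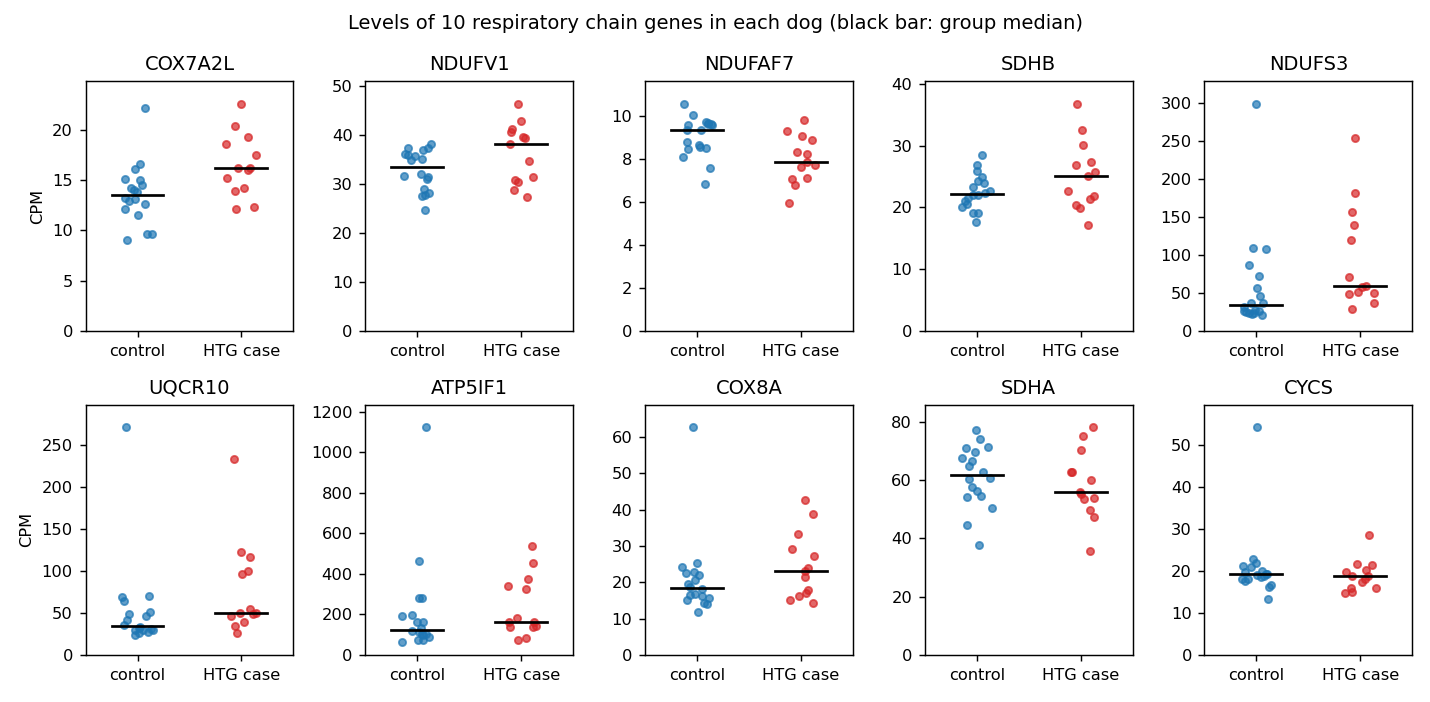
CPM of 10 genes in each of the 18 controls (blue) and 13 HTG cases (red), with the median of each group as a black bar. The groups overlap in every panel, and in NDUFS3, UQCR10 and ATP5IF1 a control (control 03, at 299, 271 and 1122 CPM) lies above all cases. These CPM are on scaled library sizes, and per unscaled total count case 01 lies above control 03 in NDUFS3 and UQCR10.

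The dogs were divided into 2 sets by their small RNA counts, at the widest gap with at least 5 dogs on each side. Such a rule always gives 2 sets, and the averages ran from 0.70 to 2.53 log2 CPM over the dogs. Across the 330 rows that carry names of small RNAs, 5 cases and 5 controls averaged 1.82 log2 CPM or more, whereas the other 21 dogs averaged 1.46 or less. By the methods of the study, RNA and libraries of 5 cases and 5 controls had been prepared earlier, for a pilot, and their batch was adjusted for there. The labels do not name those dogs, and whether they are the 10 dogs on the high side was not tested. Among the 21 dogs with low small RNA counts, the log2 fold changes of cases over controls were above 0 for 41 of the 59 genes. Their median was 0.11, beside −0.007 over all genes, and 8 genes had an unadjusted p under 0.05, against 10.6% of all genes. These 8, namely NDUFS3, NDUFS8, NDUFV1, NDUFB8, SDHB, UQCR10, COX7A2L and ATP5F1A, were all higher in the cases. The share of all genes above 0, or higher with such a p, was not computed for either side. Among the 10 dogs with high counts, 21 of 59 genes were above 0, the median was −0.04 and 0 genes had an unadjusted p under 0.05, against a median of −0.03 and 3.85% with such a p over all genes. No gene passed the adjusted threshold on either side in the edgeR quasi-likelihood test. In NDUFS3 the log2 fold change was 0.86 (SE 0.41) on the low side and 0.31 (SE 0.71) on the high side, and in UQCR10 it was 0.84 (SE 0.32) and 0.00 (SE 0.66). The difference between the 2 sides was not tested.

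The share of the genes that differed between the 2 sets of dogs was near that of all genes tested. Those include the 330 small RNA rows that set the division, so that the shares of all genes may be raised by its own rule. Shares without these rows were not computed. With group as a covariate, 4 of the 59 genes, or 6.78%, differed between the 2 sets at an adjusted p of at most 0.05 (edgeR quasi-likelihood), against 7.57% of all genes. All 4 were lower in the dogs with high counts, and 3.02% of all genes tested passed the threshold in that direction. At an unadjusted p under 0.05 there were 13 of the 59, or 22.0%, against 21.9% of all genes. UQCRC2 (ENSCAFG00000017756), a core protein of complex III, had 10.9, 13.8 and 21.1 CPM as the lowest, median and highest value in the 10 dogs and 15.4, 20.9 and 26.7 CPM in the other 21. Its log2 difference was −0.51 (SE 0.09, adjusted p = 0.000143, edgeR quasi-likelihood). The other three were NDUFB10 (an accessory subunit of complex I), at −0.35 with an adjusted p of 0.000609, SDHA at −0.34 with an adjusted p of 0.0123, and ATP5F1A (the alpha subunit of the ATP synthase) at −0.28 with an adjusted p of 0.0221, all in the edgeR test. Without case 01 and control 03, UQCRC2 and NDUFB10 passed the threshold, whereas SDHA was at −0.29 with an adjusted p of 0.0529 and ATP5F1A at −0.25 with an adjusted p of 0.0855 (edgeR quasi-likelihood). ATP5F1D passed the threshold there at −0.25. The 13 protein-coding genes of the mitochondrial genome lay the other way, with 12 higher in the high-small-RNA dogs and 4 past the adjusted threshold. Of 10 enzymes of the TCA cycle 9 were lower, 2 past the threshold, and of 23 assembly factors of complexes III, IV and V 16 were lower, 1 past the threshold. Platelet markers had log2 differences above 0 in 7 of 7, with a median of 0.61 and 4 past the threshold. Erythroid markers were above 0 in 7 of 7 (median 0.48) and T cell markers below 0 in 6 of 6 (median −0.22), with 0 past the threshold in either list in the edgeR test and 1 erythroid marker and 0 T cell markers at an unadjusted p under 0.05. Over the 31 dogs SDHA, UQCRC2 and ATP5F1A had an r of 0.76, 0.51 and 0.50 with the mean of the T cell markers and of −0.58, −0.50 and −0.39 with the mean of the erythroid markers, whereas NDUFB10 had 0.24 and 0.08. With the erythroid mean as a covariate 5 genes in place of 4 passed the adjusted threshold between the 2 sets in the edgeR test, and the median difference of the 59 genes was −0.09 with and without it. The part of platelets and T cells in the differences was not tested.

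Most of the genes varied less between dogs than the median gene. The SD of log2 CPM over the 31 dogs had a median of 0.29 over the 59 genes, beside 0.37 over all genes tested, and 20 of the 59 lay above that median of all genes. All genes tested include the small RNA rows, and the genes were not matched for count level in this comparison. NDUFV3 had the largest SD, at 1.18, followed by NDUFS3 at 1.08, ATP5IF1 at 0.99 and UQCR10 at 0.89. ATP5IF1 (ENSCAFG00000032458), the inhibitor of the ATP synthase, which red cell precursors are known to need for heme synthesis, had 72.1, 165 and 536 CPM as the lowest, median and highest value in the cases and 65.1, 123 and 1122 CPM in the controls. Its log2 fold change was 0.17 (SE 0.37).

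The level of several genes followed the level of erythroid markers, genes of developing red cells. The mean log2 CPM of 7 such markers (among them AHSP, ALAS2, CA1, EPB42, HEMGN and SLC4A1), each centred over the dogs, was computed for each dog, and their summed level ranged from 866 to 17174.7 CPM in the cases (median 3687) and from 718 to 27902.8 CPM in the controls (median 1707). Over the 31 dogs, 21 of the 59 genes, or 35.6%, correlated positively with this mean at an adjusted p of at most 0.05 (permutation test of Pearson's r, two-sided, 100000 resamples, Benjamini-Hochberg adjustment over all genes), against 15.8% of all genes. A further 10 genes, or 16.9%, correlated negatively, against 19.6% of all genes. An r of at least 0.7 was reached by 10 of the 59, or 16.9%, against 5.48% of all genes.

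The 10 genes with an r of at least 0.7 came from 4 complexes, and those not named by rule were picked out for this value. In complex I they were the core subunits NDUFS3 (r = 0.93) and NDUFS8 (r = 0.86) and the accessory subunits NDUFB11 (0.84), NDUFB4 (0.76) and NDUFB8 (0.74). In complex III they were UQCR10 (0.93), CYC1 (0.90) and UQCRQ (0.85), and in complexes IV and V they were COX8A (0.91) and ATP5IF1 (0.86). For NDUFS3, Spearman's rho was 0.91, and the adjusted p was 0.000156 for r and 0.000194 for rho, both from the smallest p that the permutation test can give. Without case 01 and control 03, the 2 dogs farthest from the median of the marker mean, r was 0.90. It was 0.98 within the cases, 0.90 within the controls, and 0.93 on both sides of the division by small RNAs.

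Other subunits of the same complexes ranged from positive to negative r with the erythroid mean. Among the core subunits of complex I, NDUFS7 had 0.61, NDUFS1 had −0.14 and NDUFV2 had −0.54. In complex III, UQCRC1 had 0.58 and UQCRC2 had −0.50, and in complex IV, COX4I1 had −0.07 and COX5A had −0.49. CYCS had −0.05. All 8 assembly factors of complex I had an r below 0, with a median of −0.45. The lowest values were those of NDUFAF1 (r = −0.68, rho = −0.64) and NDUFAF7 (r = −0.67, rho = −0.63), with an adjusted permutation p of 0.000370 and 0.000721 for r. Without case 01 and control 03 these were −0.55 and −0.59. On the high and low side of the division by small RNAs r was −0.91 and −0.47 for NDUFAF1 and −0.76 and −0.62 for NDUFAF7. Some weaker relations rested on case 01 and control 03, since without them r went from 0.51 to 0.20 in COX5B and from −0.45 to −0.22 in NDUFAF2. Between members of the same complex the median pairwise r over the dogs was 0.20 and between members of different complexes 0.14, from 269 and 1442 pairs. These pairs share the same libraries and the same mixture of cells.

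**Figure D3:**
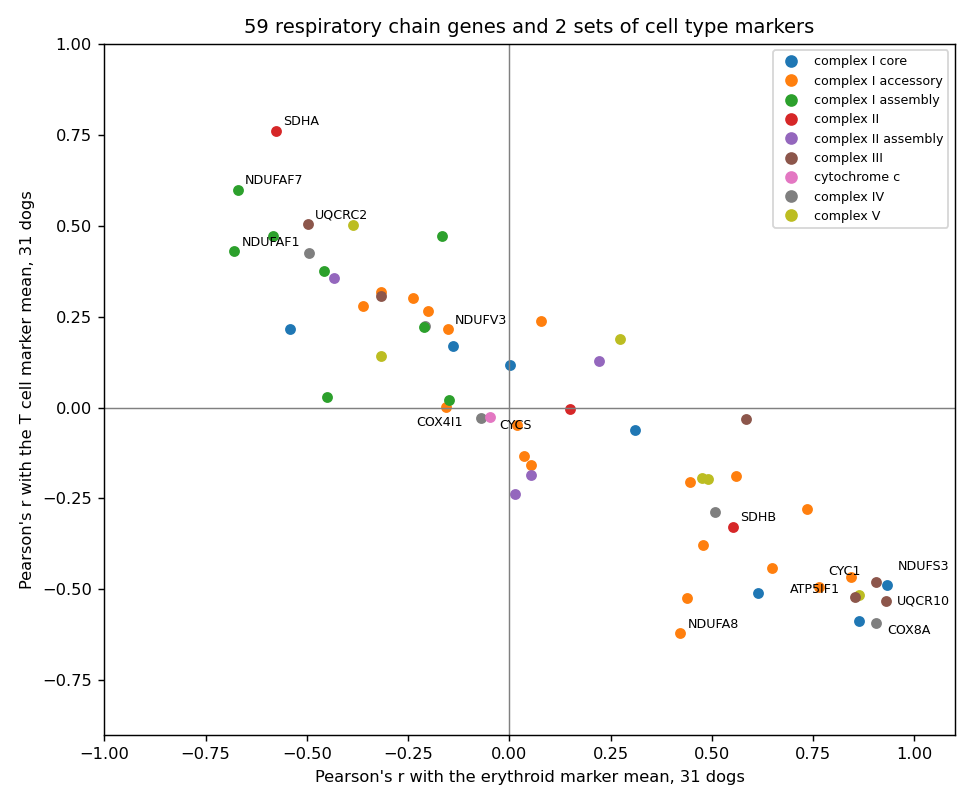
Pearson's r of each of the 59 genes with the mean of 7 erythroid markers (horizontal) and of 6 T cell markers (vertical) over 31 dogs, coloured by complex. All 8 assembly factors of complex I lie to the left of 0 and above 0, with NDUFS3, UQCR10, COX8A and CYC1 at the lower right and SDHA and NDUFAF7 at the upper left.

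SDHA had the highest r with T cell markers (CD28, CD3D, CD3E, CD3G, CD5 and LCK). Over the 31 dogs its r with their mean was 0.76 and its rho 0.82, with an adjusted permutation p of 0.000269 and 0.000223. Without the 2 dogs farthest from the median of that mean, case 06 and control 07, r was 0.71, and SDHA alone of the 59 reached an r of 0.7 over all dogs, or 1.69% against 2.69% of all genes. For SDHA r was 0.81 within the cases and 0.73 within the controls, and 0.76 and 0.79 on the high and low side of the division by small RNAs. Of the 59 genes 7 correlated positively with the T cell mean at an adjusted permutation p of at most 0.05, or 11.9% against 17.7% of all genes, and 4 of these 7 were assembly factors of complex I. Negative correlations were found for 13, or 22.0% against 15.5% of all genes. The relation of SDHA with the erythroid mean was opposite in sign (r = −0.58, rho = −0.54, adjusted permutation p = 0.00442 for r). The erythroid and T cell means were not compared with each other, so that these relations are not shown to be separate. The other lists of cell type markers were not correlated with the genes. The sum of the T cell markers ranged from 198 to 463 CPM in the cases and from 229 to 589 CPM in the controls. Between cases and controls all 6 T cell markers had log2 fold changes below 0, of which CD28, at −0.28 (SE 0.13), had an unadjusted p under 0.05.

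**Figure D4:**
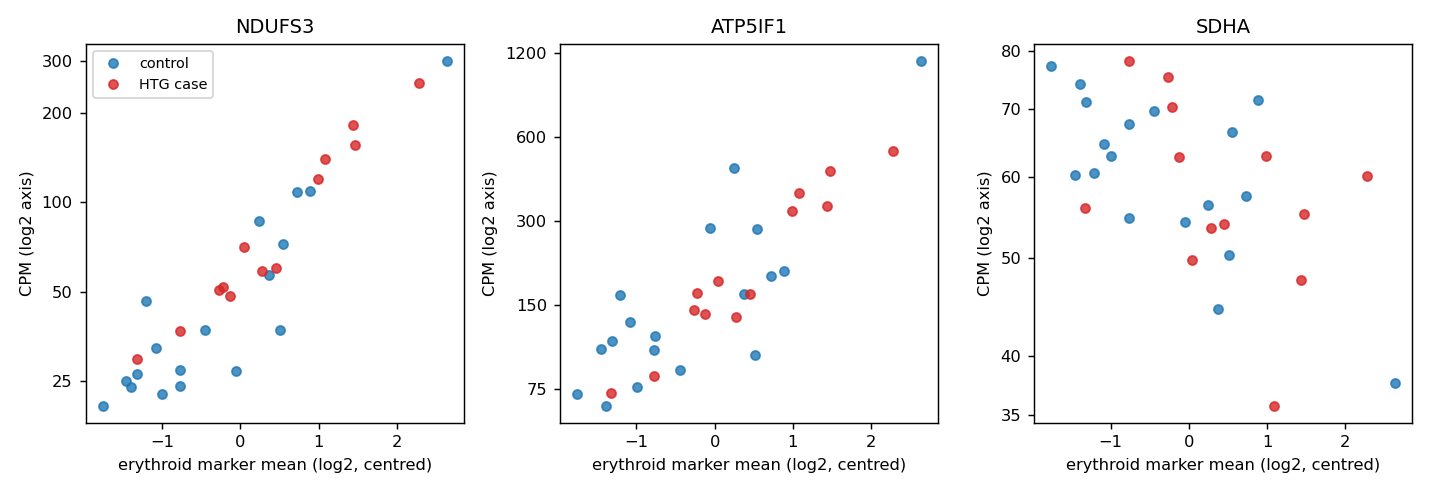
CPM on a log2 axis of NDUFS3, ATP5IF1 and SDHA against the centred mean of 7 erythroid markers in each of 31 dogs (controls blue, HTG cases red). NDUFS3 and ATP5IF1 rise along the axis in both groups (r = 0.93 and 0.86), with control 03 and case 01 at its right end, while SDHA falls (r = −0.58).

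Marker genes of red cells and platelets were measured in the same comparison of cases and controls. Of the 7 erythroid markers 6 had log2 fold changes above 0, with a median of 0.63 and none with an unadjusted p under 0.05. With the erythroid mean as a covariate the log2 fold change of NDUFS3 was 0.17 (SE 0.14) in place of 0.69, and that of UQCR10 was 0.06 (SE 0.12) in place of 0.56. CYC1, COX8A and ATP5IF1 changed sign, to −0.02, −0.05 and −0.30. COX7A2L was at 0.35 (SE 0.10, adjusted p = 0.247, edgeR quasi-likelihood), and NDUFAF7 was at −0.11 (SE 0.07), no longer with an unadjusted p under 0.05. The assembly factors of complex I were then above 0 in 5 of 8, and the genes of complex V in 4 of 6. Platelet markers were above 0 in 7 of 7, with a median log2 fold change of 0.61 and 6 with an unadjusted p under 0.05. With the platelet mean as a covariate 42 of the 59 genes were above 0, with a median of 0.06 beside −0.006 over all genes. Neither COX7A2L, at 0.20 (SE 0.12), nor NDUFAF7, at −0.16 (SE 0.08), had an unadjusted p under 0.05 in that fit. For the fits with a marker mean as a covariate the share of all genes above 0 was not computed. The part of red cell precursors and platelets in the differences between the groups was not tested.

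Case 01 and control 03 had the highest erythroid means of their groups and the highest levels of NDUFS3, UQCR10, CYC1, COX8A and ATP5IF1. NDUFS3 was at 253 CPM in case 01 and 299 CPM in control 03, and UQCR10 was at 233 and 271 CPM. These CPM are on scaled library sizes, and per unscaled total count case 01 was the higher of these dogs in both genes. NDUFS3 had 4239 and UQCR10 3906 of 22260280 counts in case 01. In control 03 they had 2285 and 2071 of 14524659 counts. Without these 2 dogs 9 of the 59 genes had an unadjusted p under 0.05 between cases and controls in place of 3, against 13.0% of all genes. Of the 9, 8 were higher in the cases, among them COX7A2L, COX8A, CYC1, NDUFB8, NDUFS3, NDUFS8 and UQCR10. The share of all genes that were higher with such a p was not computed there. The log2 fold change of UQCR10 was then 0.68 (SE 0.22), and its adjusted p of 0.145 was the smallest among the 59 genes (edgeR quasi-likelihood test).

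NDUFV3 (ENSCAFG00000010508), an accessory subunit of complex I near its NADH site, parted the dogs into 2 sets of its own. In 6 dogs it lay between 19.7 and 27.1 CPM, from 330 to 688 counts, and in the other 25 between 79.5 and 274 CPM, from 1229 to 9057 counts. The 6 were case 03, case 05, case 08, control 01, control 15 and control 16, so that 3 were cases and 3 controls, 3 females and 3 males. The gap between the sets was 1.55 on the log2 scale, and 15 of the genes tested, or 0.108%, had a gap at least as wide with 5 or more dogs on each side. Of the 6 dogs 2 were among those with high small RNA counts, and their erythroid means ranged from −1.46 to 1.47. The log2 fold change of cases over controls, −0.39 with a SE of 0.36, was the lowest of the 59 genes.

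**Figure D5:**
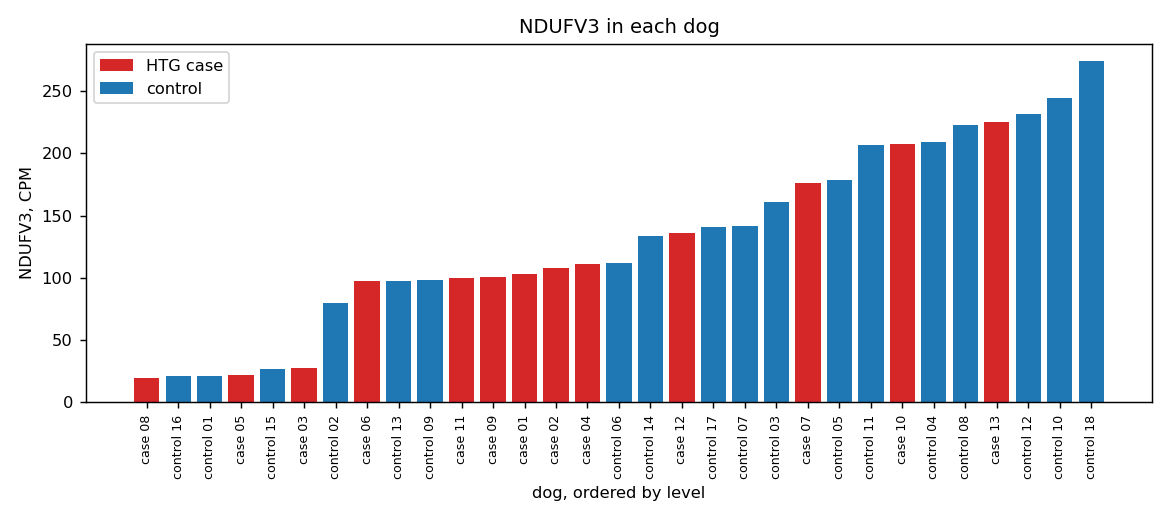
CPM of NDUFV3 in each of 31 dogs, ordered by level (HTG cases red, controls blue). The 6 lowest bars, 3 cases and 3 controls, lie between 19.7 and 27.1 CPM, and the next bar is at 79.5 CPM.

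Between the sexes, with group as a covariate, 0 of the 59 genes passed the adjusted threshold in the edgeR quasi-likelihood test, against 0.122% of all genes, and 3 had an unadjusted p under 0.05 against 4.89% of all genes. All 3 were higher in males, and 3.29% of all genes tested had such a p and were higher in males. Whatever their p, 41 of the 59 genes, or 69.5%, were above 0 against 56.5% of all genes. The 3 genes with such a p were SDHAF1, an assembly factor of complex II, at 0.31 on the log2 scale (SE 0.11), and COX5A at 0.24 and COX4I1 at 0.16, both subunits of complex IV. With the division by small RNAs as a covariate 7 genes had such a p, against 6.90% of all genes. Erythroid markers were below 0 in males in 6 of 7 (median −0.38) and platelet markers above 0 in 7 of 7 (median 0.30), with 0 of either list at an unadjusted p under 0.05 or past the adjusted threshold in edgeR, and their part was not tested. With age, 0 genes passed the adjusted threshold and 0 had an unadjusted p under 0.05, against 4.12% of all genes. Along the order of triglycerides within the 13 cases, 0 passed the adjusted threshold (of 11873 genes tested, 0% passed), and 3 had an unadjusted p under 0.05, against 3.83% of all genes. From the highest triglycerides downwards UQCR10 changed by −0.13 per rank (SE 0.05), NDUFAF7 by 0.04 (SE 0.02) and ATP5MC1 by 0.04 (SE 0.02). Case 01, with the highest erythroid mean of the cases, is also the first in this order.

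The difference between cases and controls was compared between the sexes by an interaction term, and 0 of the 59 genes had an adjusted p of at most 0.05, as had 0% of all genes (edgeR quasi-likelihood test). At an unadjusted p under 0.05 there were 8 genes, or 13.6%, against 3.93% of all genes, and 7 of the 8 were below 0, where 3.02% of all genes tested had such a p and were below 0. A term below 0 means that the log2 fold change of cases over controls was lower in males than in females. The term was above 0 in 15 of the 59 genes, or 25.4%, against 47.0% of all genes. It was below 0 in 44, with a median of −0.16 beside −0.01 over all genes. Without case 01, a female, and control 03, a male, 37 of the 59 were below 0 and the median was −0.06. CYC1 had 34.5, 36.7, 53.6, 54.8 and 82.0 CPM in the 5 female cases and a median of 24.3 CPM in the female controls, with 44.1 CPM as the highest of these. In males its medians were 26.3 CPM in the cases and 26.0 CPM in the controls. The interaction was −1.09 (SE 0.41, unadjusted p = 0.0129, adjusted p = 1.00, edgeR quasi-likelihood). Erythroid markers moved with this term, being below 0 in 7 of 7 with a median of −1.30 and 1 at an unadjusted p under 0.05. Of the 13 protein-coding genes of the mitochondrial genome 0 were above 0, with a median of −0.51 and 7 with such a p. Platelet and T cell markers were above 0 in 7 of 7 and 6 of 6 (medians 0.24 and 0.10), with 0 at such a p. The part of these lists in the term was not tested. Without the same 2 dogs the number of the 59 genes with an unadjusted p under 0.05 was 1 in place of 8, against 3.10% of all genes, and the term of CYC1 was −0.55 (SE 0.32).

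Other genes of the pathway were examined from lists fixed for this purpose, and none of them passed the adjusted threshold between cases and controls in the edgeR quasi-likelihood test. Of 10 regulators of mitochondrial biogenesis 1 had an unadjusted p under 0.05, the coactivator PPARGC1A, with a log2 fold change of 0.66 (SE 0.26). The other 9, among them the transcription factors NRF1 at −0.09 and ESRRA at −0.07 and the mitochondrial factor TFAM at −0.06, were below 0 and did not pass. Of 23 assembly factors of complexes III, IV and V, 18 were below 0 and 1 had an unadjusted p under 0.05, COX19 at −0.33 (SE 0.16). Of 6 further assembly factors of complex I, 5 were below 0 and ECSIT, at −0.27 (SE 0.11), had an unadjusted p under 0.05. Of 10 enzymes of the TCA cycle 8 were above 0, with a median of 0.03, and 1 had an unadjusted p under 0.05. Of the 13 protein-coding genes of the mitochondrial genome 11 were below 0, with a median of −0.18, and MT-ND6 had an unadjusted p under 0.05 at −0.77 (SE 0.23). These shares stand beside 9.81% of all genes with an unadjusted p under 0.05.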

How the data were processed

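Whole-blood RNA of 31 dogs, collected in Tempus tubes, was made into libraries with a stranded total RNA kit (SMARTer Pico) that removes ribosomal RNA, although the labels give the molecule as polyA RNA. The authors deposited raw counts per gene, without normalization; per the labels and methods, reads were checked with FastQC, trimmed with Trimmomatic, aligned to Dog10K_Boxer_Tasha (canFam6) with HISAT2, and counted where both mates of a pair mapped, and the authors tested them with DESeq2. The counting program and annotation are not given in the sources used here. Group and sex came from the labels, and age and the order of triglycerides from the study's table of dogs. The batch covariate of the study was left out because the labels do not name the dogs of its pilot.

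Library sizes were scaled by TMM in edgeR 4.0.16 under R 4.3.3, low counts were removed with filterByExpr by group, and all 13918 genes left were tested with glmQLFit and glmQLFTest, with Benjamini-Hochberg adjustment and a threshold of 0.05. CPM used TMM library sizes, and log2 CPM a prior count of 2. Totals of 14524659 to 41533599 counts per dog set the precision. The scripts were tested on simulated data. DESeq2 1.42.0 and limma 3.58.1 served as alternatives. Correlations with marker means used 100000 permutations (scipy 1.17.1, pandas 2.3.3 and numpy 2.4.6 under Python 3.11.15), leaving the markers themselves out, and this test was added after the data were seen. Figures were drawn with matplotlib 3.10.9.

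The members and lists were chosen with earlier results of these data known. The genes named by rule were the 10 members with the smallest p between cases and controls, the member with the smallest p and the member with the highest CPM in each complex, all rows of tissue isoform pairs of complex IV, SDHA, SDHB, SDHC, CYCS and CYC1, those with the highest and lowest fold change, and up to 10 past the threshold in the tests of sex, age, triglyceride order and interaction, of which there were none. Other genes named, such as UQCRC2, NDUFB10, ATP5F1A, NDUFS8, UQCRQ and NDUFAF1, were chosen after their values were seen. A few genes are not reported here by name or value, and remain in counts and means over genes. Transcript lengths were not used here, so that the highest CPM in a complex, used only to choose genes, is not a level per length, and promoters and protein sequences were not analysed here. In the RefSeq gene table (assembly UU_Cfam_GSD_1.0) 62 of the 64 symbols matched.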

Additional observations from a re-analysis of the deposited data

How the results depend on the processing

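Between cases and controls, the number of respiratory chain genes past the adjusted threshold was 0 in the edgeR fit and in all 18 alternatives, 2 of them (the lymphocyte marker mean, and the erythroid mean together with the small RNA split, as covariates) chosen after seeing the data, as were the contrast of the small RNA split, its fit with the erythroid mean and the removal of case 01 and control 03 from it and from the interaction. Of all genes, 5 passed between cases and controls in the edgeR fit, 89 in DESeq2, 28 without case 01 and control 03, and 0 in limma-voom. The number of respiratory chain genes with an unadjusted p under 0.05 was 3 (9.81% of all genes tested). It became 6 in limma-voom (11.2% of all genes), 5 with the small RNA split as a covariate (9.83%), 7 with the platelet mean (5.86%), 6 with the lymphocyte mean (11.8%), 9 without case 01 and control 03 (13.0%), 8 on the low side of the split alone (10.6%) and 0 on its high side (3.85%). It was 4 without a filter on low counts (11.6%), with the erythroid mean (9.53%) and with the erythroid mean and the split (10.4%). The cause of these moves was not tested. Between the sexes the number with such a p was 3, and it became 2 in DESeq2, under RLE and without a filter, and 7 with the split as a covariate. Between cases and controls the genes had a median log2 fold change between −0.04 (high side alone) and 0.11 (low side alone). Of 396 values of the 22 named and tested genes 364 kept their sign, 32 changed it and 0 passed the threshold, the smallest adjusted p being 0.145 in edgeR. Without the 20 genes with the highest totals, the share of counts was 0.250% in the controls and 0.257% in the cases, since the denominator is smaller. Case and control numbers do not pair the dogs, which are different animals. Deviations of same-numbered dogs correlated between −0.44 and 0.26 over 13 pairs, 3 of them over 0.1, and with the replicate block 2 genes had an unadjusted p under 0.05 and 0 passed the threshold. Levels per coding length and promoter motifs were planned and not run.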

Other observations

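Some of the genes overlap another protein-coding gene in the RefSeq table (assembly UU_Cfam_GSD_1.0), where 16 of the 64 had such a neighbour. Whether counts were assigned by strand is not given in the sources used here, so that reads of the 2 genes of a pair may not have been told apart. Over the dogs, log2 CPM of SDHA had an r of 0.70 with its overlapping neighbour CCDC127. For NDUFB8 and HIF1AN r was −0.65, for NDUFS3 and KBTBD4 it was −0.29, and for ATP5PF and GABPA, a regulator of respiratory chain genes, it was −0.09. These values describe 31 libraries that share their mixture of cells, and no test was made of them.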
